A study of Arabidopsis thaliana with 14 samples.

Results

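Regions of the Arabidopsis thaliana genome that were deposited for both FLM splice variants, iFLMbeta and iFLMdelta, are described here. They were found by position: a region of the iFLMbeta table and one of the iFLMdelta table on chromosomes 1 to 5 formed a pair where they shared 1 bp or more. There were 741 such pairs, made of 737 of the 13791 iFLMbeta regions and 737 of the 10006 iFLMdelta regions. They took up 5.34% of the first list and 7.37% of the second. The rule used positions alone and did not compare read counts between the variants. A pair needed a deposited region in both tables, so the regions listed for each construct set which positions could pair.

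Seedlings of Columbia-0 carrying GFP-tagged FLM were used for chromatin immunoprecipitation with an antibody against GFP, followed by sequencing (ChIP-seq), and the controls carried FLM without a tag. Both variants were grown in long days for 10 days at 23 °C and collected at zeitgeber time 8 h, with 2 GFP and 2 control libraries each. Another construct, gFLM, was grown for 15 days at 16 °C, and 3 libraries of each kind were made from it. It entered only as a separate readout, because age and temperature differ together with the construct. The promoters that drive the constructs, the meaning of the prefixes g and i, and the number of transgenic lines are not stated in the sample labels. Nothing states that replicates came from separate plant pools, so the p-values below rest on the spread of these libraries alone, which may be technical.

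FLM (FLOWERING LOCUS M) is a MADS-box transcription factor that delays flowering in Arabidopsis, and MADS-box proteins bind DNA as dimers and larger complexes at CArG boxes. Its transcript is spliced into a beta and a delta form, which use alternative exons and so differ in a stretch of the protein next to the DNA-binding domain. In earlier work on Arabidopsis, FLM-beta was described to repress flowering together with its partner SVP, and FLM-delta to form complexes with weaker DNA binding. Flowering integrators such as SOC1 are known targets of this group of repressors.

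The tables gave the reads of each library in each region. Sums over the deposited regions of chromosomes 1 to 5 were 194811 and 181951 reads for iFLMbeta GFP, 108460 and 52819 for its controls, 211113 and 101937 for iFLMdelta GFP, and 85063 and 71083 for its controls. Between 5.04% and 5.26% of the iFLMbeta reads and between 7.66% and 8.36% of the iFLMdelta reads fell into the paired regions, with the control libraries slightly above the GFP libraries in both variants. Enrichment is given as a log2 ratio: the mean log2 of reads + 1 in the GFP libraries minus that in the controls, each scaled by its library's sum over the table. Its standard error (SE) comes from the spread of the 2 libraries in each group. A region was called passing where all replicates of its construct had an authors' q-value of 0.05 or less.

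The paired regions were short and overlapped in part. The pairs shared 1 to 312 bp, with a median of 110 bp, and 422 of the 741 overlapped by at least 50% of both regions. The paired regions had a median size of 163 bp in iFLMbeta and 162 bp in iFLMdelta, against 156 bp and 153 bp for the remaining regions of each list. Only 16 pairs had a region that belonged to a second pair as well.

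The share of regions in a pair was set beside the authors' ranking. In iFLMbeta, 11 of the 202 passing regions lay in a pair, a share of 5.45%, against 5.34% of the regions that did not pass. In iFLMdelta, 3 of 41 passing regions did, a share of 7.32%, against 7.37% of the others. Passing regions made up 1.46% of the whole iFLMbeta list and 0.410% of the iFLMdelta list. The ranking was cut into 10 bins of equal size. The share of iFLMbeta regions in a pair was 4.49% in the best ranked bin and 7.69% in the last. For iFLMdelta it was 4.995% in the best ranked bin, 9.60% in bin 5 and 7.79% in the last.

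**Figure D1:**
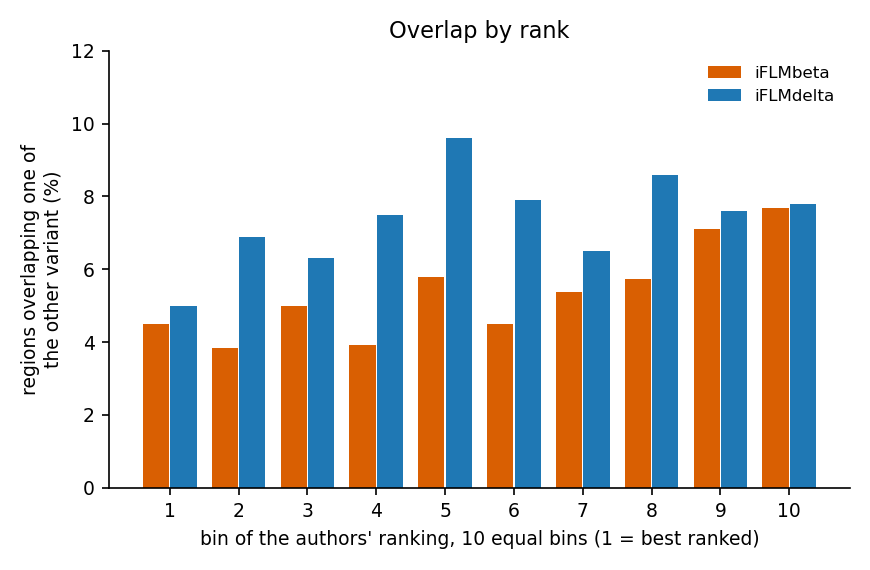
Share of the regions of each variant that overlap a region of the other variant, in percent, for 10 equal bins of the authors' ranking from best (1) to last (10). In the best ranked bin the bars stand at 4.49% for iFLMbeta and 4.995% for iFLMdelta, below the 5.34% and 7.37% of the whole lists.

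No pair passed in both variants. Of the 741 pairs, 525 had a q-value of 0.05 or less in no replicate of either variant. There were 16 pairs with such a q-value in at least 1 replicate of each. Counted by region, 13.8% of the paired iFLMbeta regions had one in at least 1 replicate, against 16.3% of those in no pair. In iFLMdelta the shares were 16.8% and 20.6%. With 11 pairs passing in iFLMbeta and 3 in iFLMdelta, the absence of a pair passing in both is read no further. At the threshold, the last passing pair in iFLMbeta had a higher q of 0.049 (RIP3, ratio 1.75) and the next one 0.0623 (AT4G23620, ratio 0.17). In iFLMdelta the last passing pair had 0.0472 (AT5G33253, ratio 0.63) and the next 0.0631 (AT1G30925, ratio 0.81).

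Across all pairs, enrichment was low in both variants. The log2 ratio had a median of −0.20 in iFLMbeta, with a range of −1.61 to 1.75, and a median of −0.11 in iFLMdelta, with a range of −1.14 to 1.67. A ratio near or below 0 is no depletion here, since each library is scaled to its own reads in the deposited regions. The pseudocount of 1 also weighs more in the control libraries, whose sums are smaller, and so lowers the ratio. Its part in the medians was not tested. Both ratios were above 0 at 92 pairs and both below 0 at 315. iFLMbeta alone was above 0 at 141 pairs and iFLMdelta alone at 193. Both GFP libraries exceeded both controls at 35 pairs in iFLMbeta, or 4.72%, against 7.23% of the whole list. In iFLMdelta they did so at 49 pairs, or 6.61%, against 10.2% of the whole list. A single pair met this in both variants; it was picked out for that after its values were seen. It lay in a coding exon of AT4G05523 on chromosome 4, where iFLMbeta had 13 and 12 GFP reads against 6 and 2 control reads. In iFLMdelta the same pair had 22 and 9 reads in GFP against 4 and 2 in control.

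The ratios of the variants had a Spearman correlation of −0.00188 across the 741 pairs, given as a description. The replicate ratios within a variant ran against each other, at −0.489 in iFLMbeta and −0.515 in iFLMdelta, with GFP and control columns of equal number set in ratio. Raw reads, by contrast, were weakly related in every combination of libraries. The correlation was 0.185 to 0.327 between GFP libraries of the variants and 0.178 to 0.320 between their controls. Between iFLMbeta GFP and iFLMdelta control it was 0.203 to 0.358, and between iFLMbeta control and iFLMdelta GFP 0.164 to 0.257. The GFP libraries of the variants were thus related no more closely than GFP of one and control of the other could be. These points share the position and the size of the regions. Reads per pair were few, with library medians between 3 and 21.

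**Figure D2:**
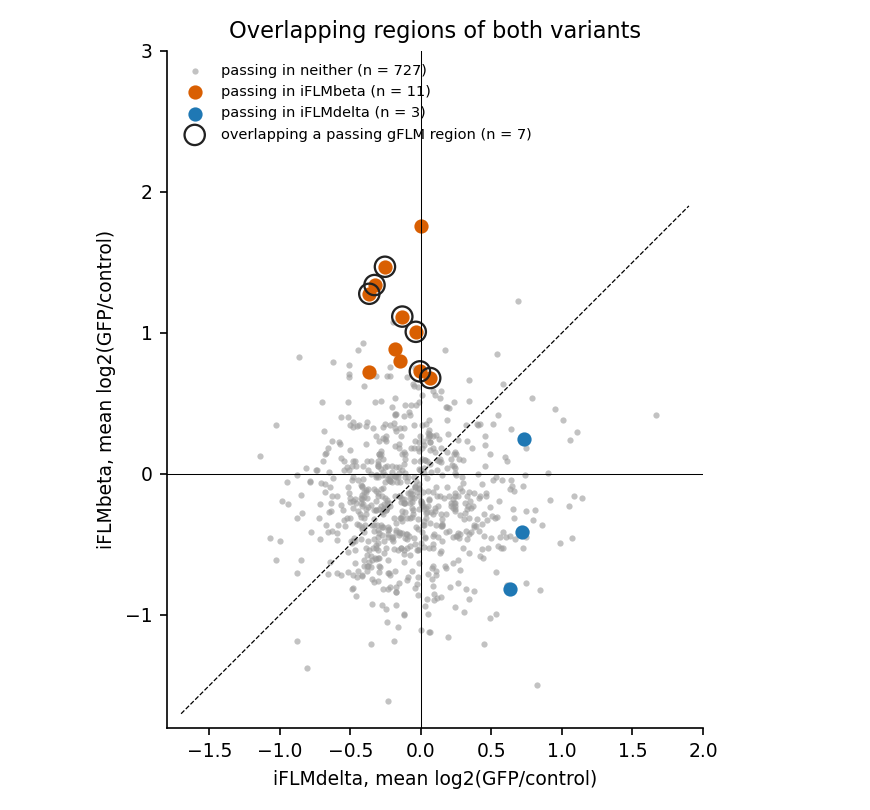
Mean log2 ratio of GFP to control in iFLMbeta (vertical) against iFLMdelta (horizontal) for the 741 pairs, with passing pairs coloured and the dashed line marking equal values. The 11 pairs passing in iFLMbeta lie between −0.37 and 0.07 on the iFLMdelta axis, and the rings mark the 7 pairs that overlap a passing gFLM region.

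iFLMbeta and iFLMdelta were set against each other at each pair as the difference of their log2 ratios. The median difference was −0.09, with quartiles of −0.47 and 0.27, and iFLMbeta was the higher of the variants at 323 of 741 pairs. That count depends on the pseudocount, at 355 with 0.5 and 158 with 5. The median difference was −0.02 at the 524 pairs with enough reads for the test below. Over the 16 choices of 1 library per group it ran from −0.26 to 0.09. The edgeR interaction had a median of 0.09 over the 524 pairs, so the sign of the median is not settled. The SE of a single difference had a median of 0.81, wider than the quartiles. The difference exceeded 2 SE at 10 pairs in favour of iFLMbeta and at 8 in favour of iFLMdelta. The edgeR quasi-likelihood test of the interaction, with Benjamini-Hochberg adjustment over the 524 pairs with enough reads, called 0 pairs, a share of 0%. Its lowest adjusted p was 0.998, and 3 pairs, or 0.57%, had an unadjusted p under 0.05. This is fewer than that threshold would give with no difference at all. The test was thus conservative here, and 0 calls do not show that the variants are alike. DESeq2 also called 0 pairs, with 2 at an unadjusted p under 0.05. The median SE of the fitted interaction was 0.94 on the log2 scale, which is no detection limit. Larger fitted values also went uncalled at this depth, such as 1.78 at AT1G17940 and −2.16 at AT1G35186.

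The 11 pairs passing in iFLMbeta had log2 ratios of 0.68 to 1.75 in that variant, which the choice of the pairs fixes in part. In iFLMdelta, which the choice did not use, the ratios were −0.37 to 0.07 with a median of −0.15, close to the median of −0.11 over all pairs. Of the 11 pairs, 2 had an iFLMdelta ratio above 0. Over all pairs that ratio was above 0 at 92 together with iFLMbeta and at 193 with iFLMbeta below 0. In none of the 11 did both iFLMdelta GFP libraries exceed both controls. They did so at only 6.61% of all pairs, so their absence among 11 pairs is read no further. iFLMbeta was higher at 11 of 11, with a median difference of 1.09. This median was 0.70 when the first iFLMdelta control library was left out. Of the 16 choices of 1 library per group, iFLMbeta was higher in 16 at AT1G17940, UNE2, AT5G38600 and SQP1 and in 15 at HB40 and AT3G29577. It was higher in 14 at TMN1, in 13 at AT1G72500, PIL2 and AT4G14730 and in 12 at RIP3. The regions of a pair did not always cover the same ground: 5 of the 11 overlapped by at least 50% of both regions, and between 17.4% and 100% of the iFLMdelta region lay inside the iFLMbeta region.

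**Figure D3:**
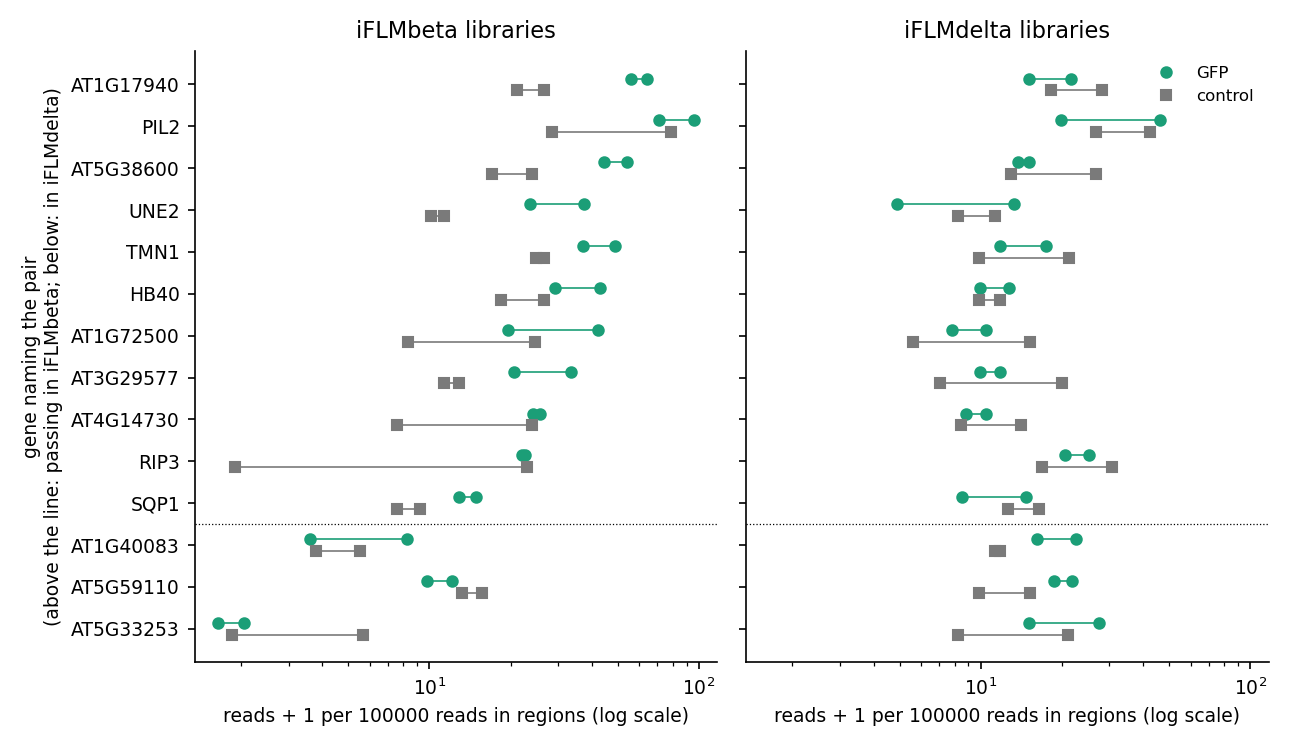
Reads + 1 per 100000 reads in the deposited regions, on a log scale, for each GFP (circles) and control (squares) library of iFLMbeta (left) and iFLMdelta (right) at the 11 pairs passing in iFLMbeta and, below the dotted line, the 3 passing in iFLMdelta. A line joins the 2 libraries of a group. In iFLMbeta the GFP libraries lie above both controls at 8 of the 11 pairs. In iFLMdelta they do so at 0 of the 11, where the share over all pairs is only 6.61%.

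Among the pairs, the gFLM libraries gave a choice that used the reads of neither variant. Of the 741 pairs, 142 overlapped a gFLM region, and at 7 of them that region passed in all 3 gFLM replicates. An overlap with either region of the pair was counted, so the gFLM region need not reach the iFLMdelta region. All 7 were among the 11 pairs passing in iFLMbeta and none among the 3 passing in iFLMdelta. At these 7 pairs the log2 ratio was 0.68 to 1.47 in iFLMbeta, with a median of 1.12. In iFLMdelta it was −0.37 to 0.07, with a median of −0.13. iFLMbeta was higher at 7 of 7, against 323 of all 741 pairs, with a median difference of 1.25. With pseudocounts of 0.5 and 5 it was also higher at 7 of 7, against the 355 and 158 above. The difference exceeded 2 SE at 3 of the 7. Without the first iFLMdelta control library the median difference was 0.49, still with iFLMbeta higher at 7 of 7.

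AT1G17940 named the best ranked pair in iFLMbeta. Its region (chromosome 1, 6174454 to 6174836, TAIR10) was intergenic, 1422 bp upstream of AT1G17940 and 2972 bp upstream of MYB52, a MYB transcription factor gene. The iFLMdelta region (6174592 to 6174809) lay wholly inside it. iFLMbeta had 108 and 116 GFP reads against 22 and 13 control reads, and iFLMdelta 31 and 21 against 23 and 12. GFP and control did not overlap in iFLMbeta after scaling and did so in iFLMdelta. The log2 ratios were 1.34 ± 0.19 and −0.33 ± 0.40 (SE, n = 2 libraries per group), a difference of 1.67 ± 0.45. The unadjusted edgeR p was 0.0348 and the adjusted p 0.998.

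The pair at AT5G38600 showed the same order, at windows that barely met. The centre of its iFLMbeta region (chromosome 5, 15460509 to 15460915) lay in a 3′ UTR, within both AT5G38600 and AT5G38610, and shared 35 bp with the iFLMdelta region (15460881 to 15461081). Reads were 104 and 80 in iFLMbeta GFP against 25 and 8 in its controls. In iFLMdelta they were 31 and 13 against 10 and 18. The ratios were 1.28 ± 0.28 and −0.37 ± 0.53 (SE, n = 2), a difference of 1.64 ± 0.60, with an unadjusted edgeR p of 0.0451. Its gFLM region had the best rank of those overlapping a pair, at 24, and a gFLM log2 ratio of 2.97 ± 0.70 (SD, n = 3).

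UNE2, a gene of the major facilitator transporter family, lay 698 bp from its pair (chromosome 1, 29399307 to 29399577), which was upstream of it and held the iFLMdelta region (29399323 to 29399460) entirely. iFLMbeta had 45 and 67 GFP reads against 10 and 5 control reads. iFLMdelta had 27 and 4 against 6 and 7, so that 1 GFP library was high and the other low. The difference was 1.72 ± 0.83 (SE, n = 2), from ratios of 1.47 and −0.25, and the unadjusted edgeR p was 0.104.

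Between TMN1, which encodes a multispanning membrane protein of the endomembrane system, and FD1, a ferredoxin gene, the pair lay 183 bp past the end of the first and 218 bp upstream of the second (chromosome 1, 3664021 to 3664315). Its reads were 71 and 88 against 26 and 13 in iFLMbeta, where GFP and control did not overlap after scaling. In iFLMdelta they were 36 and 11 against 17 and 6, and overlapped. The ratios were 0.73 ± 0.21 and −0.01 ± 0.62, and the difference of 0.73 ± 0.66 (SE, n = 2) was within 2 SE.

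At AT3G29577 the pair (chromosome 3, 11386928 to 11387215) was 2426 bp upstream of that gene and 3067 bp upstream of AFP3, a gene for an ABI5-binding protein. iFLMbeta GFP had 39 and 60 reads against 13 and 5, and iFLMdelta 20 and 11 against 16 and 4. The ratios of 1.12 ± 0.37 and −0.13 ± 0.76 differed by 1.25 ± 0.85 (SE, n = 2). HB40, a homeobox transcription factor gene, lay 3535 bp downstream of its pair (chromosome 4, 17319775 to 17320045), which shared 36 bp with the iFLMdelta region. Reads were 56 and 77 against 19 and 13 in iFLMbeta and 20 and 12 against 9 and 6 in iFLMdelta. HB40 had the smallest difference of the 7, at 0.61 ± 0.44 (SE, n = 2).

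The pair 843 bp past the end of AT1G72500 (chromosome 1, 27294372 to 27294614) was the one of the 7 at which GFP and control overlapped in iFLMbeta. It had 37 and 76 GFP reads against 8 and 12 control reads there, and 21 and 7 against 12 and 3 in iFLMdelta. The difference was 1.04 ± 1.22 (SE, n = 2). The edgeR interaction was 1.27 on the log2 scale and 0.14 without the first iFLMdelta control library. It was 0.58 without the second iFLMbeta GFP library, and 0.53 and 2.15 without the first and the second iFLMbeta control library. Leaving out the first iFLMdelta control library also moved it from 0.82 to 0.04 at TMN1 and from 1.58 to 0.44 at AT3G29577, and leaving out the second gave 1.27 at TMN1. In gFLM the AT1G72500 pair had 251, 45 and 50 GFP reads against 7, 1 and 19 control reads, with a log2 ratio of 2.60 ± 1.03 (SD, n = 3).

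The other 4 pairs passing in iFLMbeta did not overlap a passing gFLM region. PIL2, a gene of the phytochrome-interacting factor family, held its pair in a coding exon (chromosome 3, 22989091 to 22989446). Reads were 185 and 128 against 84 and 14 in iFLMbeta and 41 and 46 against 35 and 18 in iFLMdelta, and no gFLM region overlapped it. Its ratios of 0.80 ± 0.76 and −0.15 ± 0.69 differed by 0.95 ± 1.03 (SE, n = 2). PIL2 was also 1 of the 2 pairs among the 11 with a q-value of 0.05 or less in 1 iFLMdelta replicate, at 0.00239. The other was UNE2, at 0.0412. In the authors' ranking the PIL2 regions stood high in both lists, at 27 in iFLMbeta and 41 in iFLMdelta. The 3 pairs passing in iFLMdelta ranked lower in that list, at 52, 53 and 63.

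SQP1, a gene of the squalene monooxygenase family, lay 2004 bp downstream of its pair (chromosome 5, 8177298 to 8177574). iFLMbeta had 24 and 26 GFP reads against 9 and 3 control reads, and iFLMdelta 17 and 14 against 13 and 8. The difference of 1.09 ± 0.47 (SE, n = 2) exceeded 2 SE. At AT4G14730 the pair (chromosome 4, 8448150 to 8448541) was 203 bp upstream, with 49 and 43 reads against 25 and 3 in iFLMbeta and 21 and 8 against 11 and 5 in iFLMdelta. RIP3, which encodes a partner of ROP GTPases, had the highest iFLMbeta ratio of all pairs, 1.75 ± 1.80, and it rested on 1 control library. Its reads were 43 and 39 against 24 and 0 in iFLMbeta and 52 and 20 against 25 and 11 in iFLMdelta. Without the control library at 0, the edgeR interaction at RIP3 was −0.0045 on the log2 scale in place of 0.74.

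The gFLM ratio could be read beside those of the variants at more than the passing pairs. Over the 142 pairs that overlapped a gFLM region, the Spearman correlation of the gFLM ratio was 0.318 with iFLMbeta and 0.0175 with iFLMdelta. Without the 7 passing pairs it was 0.210 and 0.0150 over 135 pairs. The points share the gFLM libraries, and these values are a description. Their difference was not tested. At some of these pairs the gFLM region met the iFLMbeta region and not the iFLMdelta region, as at FLA18 below. At the 11 pairs with a gFLM log2 ratio of 1 or more, the median ratio was 0.73 in iFLMbeta and −0.13 in iFLMdelta, and iFLMbeta was higher at 10. These 11 include the 7 passing pairs, with gFLM ratios from 1.24 up, and SQP1, at 1.47. They are therefore mostly pairs already described as passing in iFLMbeta and no separate set. At the 38 pairs with a gFLM ratio of 0 to 1, the medians were −0.14 and −0.20, and iFLMbeta was higher at 19. At the 93 pairs below 0 they were −0.20 and −0.16, with iFLMbeta higher at 44.

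**Figure D4:**
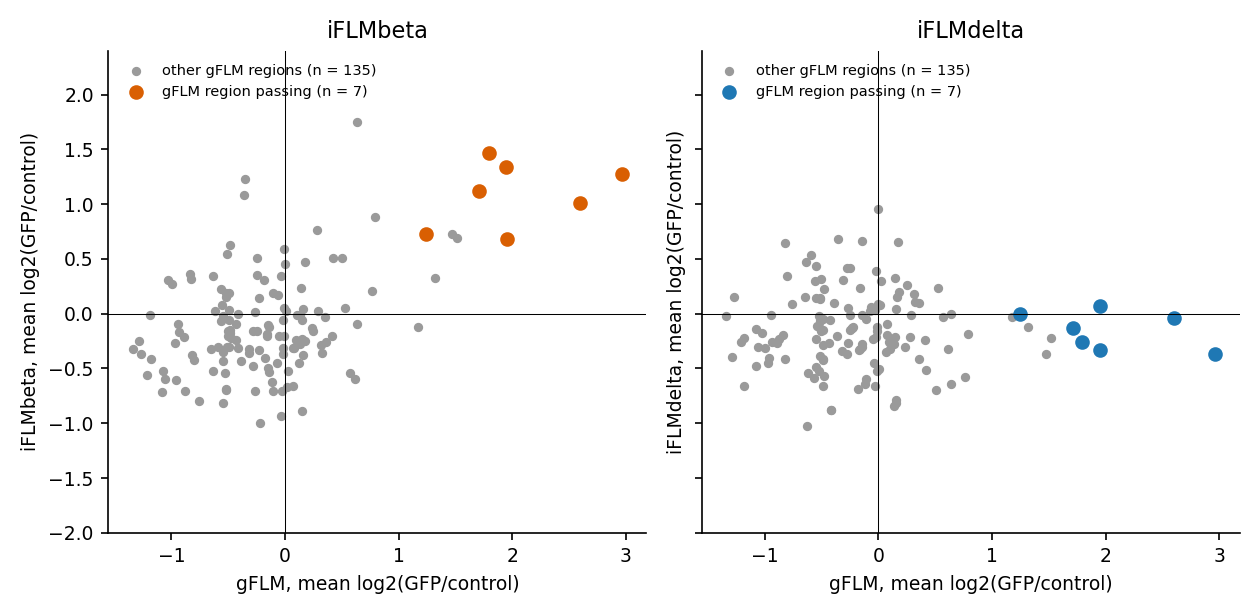
Mean log2 ratio of GFP to control in iFLMbeta (left) and iFLMdelta (right) against that in gFLM, for the 142 pairs that overlap a gFLM region. The 7 pairs whose gFLM region passed lie between 0.68 and 1.47 in iFLMbeta and between −0.37 and 0.07 in iFLMdelta.

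The gFLM regions at pairs were compared by count with those at regions of a single variant. Of the 144 gFLM regions that overlapped a pair, 7 passed, or 4.86%, against 0.800% of all 19879 gFLM regions. Among the 2207 gFLM regions that overlapped an iFLMbeta region only, 142 passed, or 6.43%. Among the 585 that overlapped an iFLMdelta region only, 1 passed, or 0.171%. Of the 16924 that overlapped neither, 9 passed. The median gFLM log2 ratio was −0.18 at the pairs, −0.13 at iFLMbeta alone, −0.37 at iFLMdelta alone and −0.34 at neither.

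edgeR called 2 of the 60 gFLM regions at pairs that had enough reads as higher in GFP than in control, or 3.33%, against 0.709% of the 5216 gFLM regions tested. They were those at AT5G38600, with a Benjamini-Hochberg adjusted p of 0.00399, and at AT1G72500, with 0.0101. The count rests on single libraries. Without GFP library 1, 2 or 3 it was 0, while 15 of 6607, 0 of 8826 and 14 of 8269 gFLM regions were called in the whole table. Without control library 3 it was 0, with 18 of 6235 called in all. Without control library 1 or 2 it was 4, with 53 of 6443 and 33 of 7625 called in all.

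The 3 pairs passing in iFLMdelta had log2 ratios of 0.63 to 0.73 in that variant, which chose them. In iFLMbeta they had −0.81 to 0.25, and no gFLM region overlapped any of them. AT5G59110 held its pair in a coding exon (chromosome 5, 23863755 to 23864029 in iFLMbeta and 23863600 to 23863937 in iFLMdelta). iFLMdelta had 45 and 18 GFP reads against 12 and 6 control reads, and iFLMbeta 18 and 21 against 16 and 6. With the pseudocount and scaling, both GFP libraries were above both controls in iFLMdelta and below both in iFLMbeta. The order in iFLMbeta depends on the pseudocount. There the second GFP column stood at 12.1 reads + 1 per 100000 and the second control column at 13.3. The ratios of 0.72 ± 0.34 and −0.41 ± 0.20 gave iFLMbeta minus iFLMdelta as −1.12 ± 0.39 (SE, n = 2), with an adjusted edgeR p of 0.998. iFLMbeta was higher in 0 of the 16 choices of 1 library per group here, in 2 at AT5G33253 and in 6 at AT1G40083.

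AT1G40083 also held its pair in a coding exon (chromosome 1, 14922476 to 14922667). Reads were 33 and 22 against 9 and 7 in iFLMdelta and 6 and 14 against 5 and 1 in iFLMbeta, and the difference of −0.48 ± 0.70 (SE, n = 2) was within its error. The pair 2471 bp upstream of AT5G33253, a pseudogene in RefSeq (chromosome 5, 12510183 to 12510323), had 31 and 27 reads against 6 and 14 in iFLMdelta. iFLMbeta had 3 and 2 against 1 and 2 there, too few to place it. Its difference was −1.45 ± 1.15 (SE, n = 2).

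The lowest interaction p-values went in both directions. Beside AT1G17940, AT5G38600, AT3G29577 and UNE2 above, FLA18, a fasciclin-like arabinogalactan protein gene, AT4G19410 and AT4G17080 had the higher ratio in iFLMbeta. The pair at FLA18 lay 281 bp past the end of the gene, and its regions shared only 7 bp. Its reads were 12 and 16 against 3 and 1 in iFLMbeta and 26 and 11 against 9 and 11 in iFLMdelta, a difference of 1.28 ± 0.36 (SE, n = 2). iFLMdelta was higher at AT1G35186, AT1G54950 and AT4G22415. The pseudogene AT1G35186 had 17 and 10 reads against 4 and 5 in iFLMdelta and 6 and 9 against 19 and 2 in iFLMbeta, a difference of −1.65 ± 0.96. AT1G54950 had the most negative difference of all pairs, −2.32 ± 1.76, where iFLMbeta had 13 and 1 reads in GFP against 3 and 8 in control. Its adjusted edgeR p was 0.998, as at the other 9.

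Pairs with a high ratio in both variants were made of few reads. The 5 whose lower ratio was highest were at CYP710A1, a sterol desaturase gene, AT2G12325, AT3G44070, RAB7B, a Rab GTPase gene, and AT4G03115, and none had enough reads for the edgeR test. CYP710A1, whose pair was 151 bp upstream, had 1 and 16 GFP reads against 0 and 0 control reads in iFLMbeta and 22 and 7 against 3 and 4 in iFLMdelta. Its ratios were 1.23 ± 1.68 and 0.69 ± 0.37 (SE, n = 2). AT4G03115 had the tightest values of the 5, at 0.46 ± 0.37 in iFLMbeta and 0.95 ± 0.24 in iFLMdelta, from 13 and 9 against 3 and 2 reads and from 19 and 9 against 4 and 2.

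Pairs at listed regulators were counted. Of 93 listed genes of flowering time, floral organ identity, light and temperature response and the circadian clock, 4 lay within reach of a pair, that is from 3 kb upstream of the start to 1 kb past the end. This was 4.30%, against 3.03% of the protein-coding genes in RefSeq. By list, they were 2 of 46 flowering time genes, 1 of 14 floral organ identity genes, 1 of 19 light and temperature genes and 0 of 14 clock genes. None of the 3 pairs at these genes passed in either variant. PIL2, whose pair passed in iFLMbeta, was not among the listed genes, so this count depends on the make-up of the lists.

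SOC1 (AGL20), a MADS-box activator of flowering, and AGL6, a MADS-box gene of floral development, shared a pair between their 3′ ends (chromosome 2, 18807217 to 18807415), 222 bp past the end of the first and 793 bp past the end of the second. Reads were 15 and 20 against 10 and 6 in iFLMbeta and 34 and 16 against 31 and 8 in iFLMdelta. The ratios of −0.25 ± 0.31 and −0.39 ± 0.79 differed by 0.14 ± 0.85 (SE, n = 2), and gFLM was at −1.29 ± 0.73 there (SD, n = 3). PIF4, a bHLH factor of warm-temperature growth, had its pair in a coding exon (chromosome 2, 17888603 to 17888852), but the variants' regions shared only 2 bp. Its ratios were −0.31 ± 0.59 and −0.15 ± 0.35, from 36 and 18 against 24 and 6 reads and from 54 and 16 against 17 and 17. CDF2, a DOF factor that represses CONSTANS, had a pair 783 bp past its end, with ratios of −0.39 ± 0.15 and −0.42 ± 0.45 (SE, n = 2).

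The location of pairs is given beside that of the remaining regions, with no test. The centre was intergenic at 54.8% of the 737 iFLMbeta regions in a pair, against 45.4% of the other 13054, and at 54.1% of the paired iFLMdelta regions, against 41.0% of the other 9269. Introns and other parts of genes took 5.97% of the paired iFLMbeta regions, against 11.8%, and 7.73% of the paired iFLMdelta regions, against 11.2%. Regions over 3 kb from any gene made up 6.11% against 2.97% in iFLMbeta and 5.97% against 3.74% in iFLMdelta. Regions within 1 kb upstream of a gene made up 15.7% against 18.3% in iFLMbeta and 14.9% against 12.6% in iFLMdelta. Along the chromosomes, the share of iFLMbeta regions in a pair ran from 1.33% in the first 2 Mb of chromosome 3 to 12.9% between 12 and 14 Mb of chromosome 1. Over 62 such bins it had a Spearman correlation of 0.595 with the number of iFLMdelta regions in the bin, given as a description, since the points share both lists.

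One kind of location was singled out after its values were seen, and it got no test. At 48 pairs the iFLMbeta centre lay in an exon annotated as neither coding nor UTR, and RefSeq lists the gene as a pseudogene in all 48. The median log2 ratio there was −0.35 in iFLMbeta and 0.14 in iFLMdelta. iFLMbeta was higher at 12 of the 48, or 25%, against 311 of the remaining 693 pairs, or 44.9%, and the median differences were −0.59 and −0.06. Both iFLMdelta GFP libraries exceeded both controls at 12 of the 48 and both iFLMbeta GFP libraries at 1. With 1 library per group, the median ranged from −1.19 to 0.05 over 16 choices. Only 10 of the 48 had enough reads for the edgeR test. In the regions outside pairs, the 1010 iFLMdelta regions of this kind had a median ratio of 0.17 and the other 8259 a median of −0.04, whereas in iFLMbeta the medians were −0.12 and −0.15. The regions of this kind held 7.30% and 7.71% of iFLMdelta GFP reads and 5.42% and 7.13% of its control reads, so that the first control library was the low one. The part of that library in the difference was not tested.

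**Figure D5:**
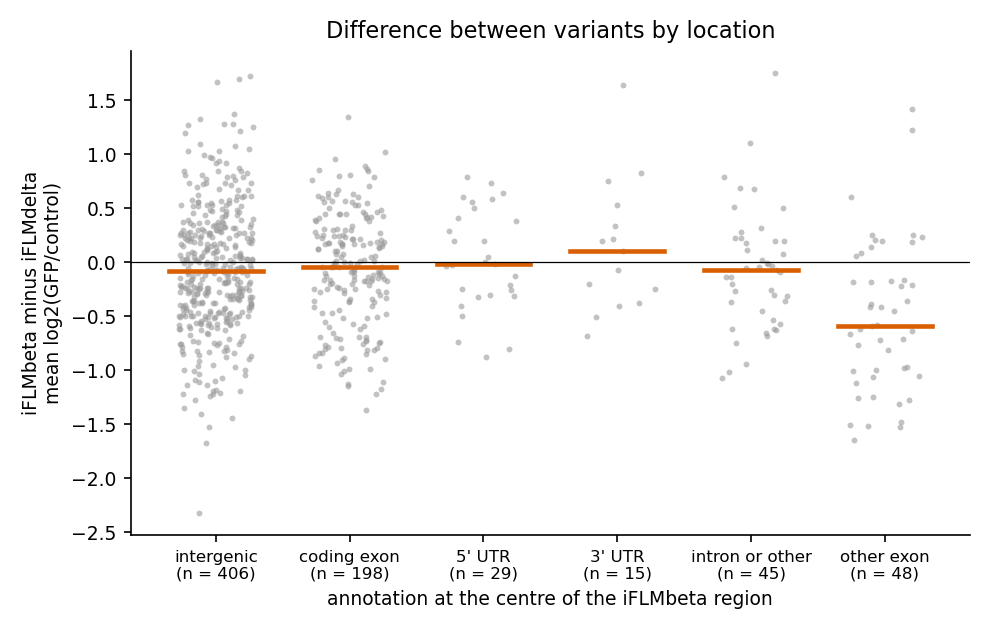
Difference of the log2 ratios, iFLMbeta minus iFLMdelta, for each of the 741 pairs by the annotation at the centre of the iFLMbeta region, with orange bars for medians. The median is −0.59 at the 48 pairs in exons that are neither coding nor UTR and between −0.08 and 0.11 at the other locations.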

How the data were processed

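Each construct has 1 table deposited by the authors. Its rows give a region's raw read count in each library, a q-value for each replicate (Benjamini-Hochberg), the log2 rank product and the rank score made from them, per the file headers. Positions are in TAIR10, as listed in the submitters' processing notes. The sources used here do not give the aligner, peak caller or treatment of duplicates. Sums over regions are not sequencing depths, and reads carry no molecular identifiers.

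The columns of both variants carry a replicate number that ties them to a group but to no single library. All were used, and the columns without a sample or group numbered 0. Ratios used a pseudocount of 1 and column sums, as described with the results. The interaction was fitted with edgeR 4.0.16 in R 4.3.3 on the counts of all 741 pairs (library size by column sum, filterByExpr, 4 group means). The code was also run on simulated counts with planted changes and a fixed spread. That run does not show what is detectable in these libraries. gFLM was fitted on its whole table with TMM; organelle regions were left out. DESeq2 1.42.0 was an alternative. Gene names are those of RefSeq TAIR10.1, with 1697 of 1728 genes at or beside a pair matched.

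The members and gene lists were chosen with earlier results of these data known. Pairs named in the text passed in either variant, had 1 of the 10 lowest interaction p-values or 1 of the 5 highest lower ratios, lay at a listed gene, or had 1 of the 5 best ranked passing gFLM regions.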

Additional observations from a re-analysis of the deposited data

How the results depend on the processing

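The interaction of variant and GFP gave 0 calls under every alternative run, and its lowest adjusted p was 0.316, over the 14 pairs passing in either variant alone. Between 0 and 10 pairs had an unadjusted p under 0.05. With a replicate block by column number it also gave 0 calls, and 0 with the iFLMdelta control columns crossed. Deviations of same-numbered GFP and control columns had a correlation of −0.07 in iFLMbeta and −0.15 in iFLMdelta. Such values cannot settle whether the numbers pair the libraries. For gFLM numbers 1, 2 and 3 the correlations were 0.40, −0.01 and 0.12, which leaves the pairing unsettled there too. gFLM calls moved over the whole table and not only at pairs. At pairs the replicate block gave 7 in place of 2, with 138 in place of 37 of all 5216 regions. The counts were 1 and 25 with column sums, 5 and 64 with DESeq2, and 0 and 0 of 19879 with no filter on low counts. Without 1 replicate they were 0 to 4 at pairs and 0 to 53 in all; the cause was not tested.

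The 741 pairs fell to 422 with at least 50% overlap of both regions, by construction. There were 16 with a q-value of 0.05 or less in 1 or more replicates of each variant and 14 passing in both replicates of either. The median difference was −0.28 with a pseudocount of 5 and −0.16 to −0.03 without 1 replicate. Without 1 replicate it kept its sign at pairs passing in iFLMbeta (0.70 to 1.51) and in iFLMdelta (−1.28 to −0.75), where the choice of pairs fixes it in part. The sign also held at pairs passing in gFLM (0.49 to 1.60). With 1 library per group the medians ran from 0.29 to 1.92, from −1.60 to 0.06 and from 0.22 to 1.99 in these 3 sets. These and the fits in which each region entered 1 pair only were added after seeing the data.

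Of 333 alternative interaction values for the 22 named pairs tested, 8 changed sign, each without 1 replicate. The ranges over such fits were −1.06 to 0.62 at AT1G40083, −0.76 to 0.37 at PIF4, −0.60 to 1.08 at SOC1, −0.0045 to 7.83 at RIP3 and −2.96 to 1.52 at AT4G22415. The upper value at RIP3 was fitted against a control library with 0 reads and is no bound. Library medians of 3 to 21 reads per pair limit what can be told at a single pair.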
